A study of Mus musculus with 8 samples.

Results

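The genes described here encode 7 structural microtubule-associated proteins: Map1a, Map1b, Map1s, Map2, Map4, Map6 and the tau gene Mapt. They are 7 of the 20802 genes listed for the mouse hippocampus, found by matching Ensembl identifiers to gene symbols. The set was chosen on the values of Map1a, whose level was higher in the Anesthesia group than in the Control group, and the other 6 genes were added because they encode proteins of the same kind. The difference of Map1a is therefore given as a description, without a test, and the question is whether the other 6 genes shared it.

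RNA was sequenced from the hippocampus of 8 male C57BL/6 mice, 4 in each group. Mice in the Anesthesia group had daily intraperitoneal ketamine at 35 mg per kg for 5 days, from PND16 to PND20 (PND, postnatal day). Mice in the Control group had saline injections, although their sample titles call them untreated. The labels give an age of P28 for all 8 mice, and the study's methods place RNA extraction 1 week after the last injection. The values are normalized counts, that is, estimated reads per gene divided by a size factor, and their totals lay between 18702634 and 19231119 per mouse. Each mouse is a separate sample, but litters and cages are not given.

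Microtubules are hollow polymers of tubulin that carry transport along axons and dendrites, and structural microtubule-associated proteins (MAPs) bind along their walls and stabilize or bundle them. The MAP1 proteins, Map1a, Map1b and Map1s, are made as precursors that are cut into a heavy and a light chain. Map1b is typical of growing axons in young neurons, and Map1a of mature neurons, where it is found in dendrites. Map2 in dendrites, tau in axons and the widely expressed Map4 share a tubulin-binding repeat domain near their carboxy ends. Map6, also called STOP, protects microtubules against cold and drugs that depolymerize them.

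The promoters of the 3 MAP1 genes are shown because 2 members of that family stood apart between the groups and the third did not. Each is the 200-base stretch from 250 to 51 bases before the RefSeq start on GRCm38.p6, in the direction of transcription, with capitals for the motifs GGGCGG and CCAAT on either strand. Map1a lies at chr2:121289352-121289551 on the plus strand, Map1b at chr13:99516653-99516852 on the minus strand and Map1s at chr8:70905724-70905923 on the plus strand.
Map1a: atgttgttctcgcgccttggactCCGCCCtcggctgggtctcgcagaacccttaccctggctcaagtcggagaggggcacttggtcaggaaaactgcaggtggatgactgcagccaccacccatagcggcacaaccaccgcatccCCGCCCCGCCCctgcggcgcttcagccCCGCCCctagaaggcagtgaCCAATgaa
Map1b: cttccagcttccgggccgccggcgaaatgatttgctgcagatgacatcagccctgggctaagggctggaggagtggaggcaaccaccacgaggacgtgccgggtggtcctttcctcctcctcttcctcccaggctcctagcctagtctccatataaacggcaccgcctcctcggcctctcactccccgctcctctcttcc
Map1s: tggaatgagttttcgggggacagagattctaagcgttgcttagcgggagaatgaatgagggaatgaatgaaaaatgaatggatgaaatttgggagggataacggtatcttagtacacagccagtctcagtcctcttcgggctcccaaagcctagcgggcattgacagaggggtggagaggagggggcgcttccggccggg

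The Map1a stretch held GGGCGG 4 times, all on the reverse strand and 2 of them overlapping by 1 base, and CCAAT once. Neither motif lies in the Map1b or the Map1s stretch. Of 32851 promoter windows of the same length, 24.6% held GGGCGG and 28.4% held CCAAT on at least 1 strand. The number of CpG dinucleotides was 13 for Map1a, 11 for Map1b and 9 for Map1s, against a median of 4. RefSeq windows were found for 5 of the 7 genes, all but Map6 and Mapt. Map2 and the first Map4 window held GGGCGG 4 and 2 times.

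Among all genes tested, the limma comparison called 0 of 18865 (0%) at an adjusted p of 0.05, and 8.02% had an unadjusted p under 0.05. The paper, which used DESeq2, reported differentially expressed genes at the same threshold. The 0 was obtained with the limma fit on normalized values, and the reason for the difference from the paper was not tested. The groups of 4 mice did not overlap in 2.81% of genes in the direction of higher values in the Anesthesia group, and in 2.23% in the other direction. All 7 MAP genes passed the filter of a mean of at least 10 normalized counts, and the lowest value in any mouse was 511.6, of Map1s. None of the other 6 was past the threshold. Map1s was the only one of them whose groups did not overlap, and Map1s and Mapt had an unadjusted p under 0.05. In whole tissue, a change in the number of cells that make an RNA cannot be told apart from a change in the amount per cell.

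Map1a (ENSMUSG00000027254) spans 121289600 to 121310832 on chromosome 2 of GRCm38. In the Anesthesia group it had 14597, 13502, 15016 and 18953 normalized counts in replicates 1 to 4, and in the Control group 8611, 10266, 10061 and 10322. The groups did not overlap, with Anesthesia replicate 4 highest and Control replicate 1 lowest. The fold was 1.57 (log2 fold change 0.65, standard error 0.10), given without a test. Its exons share 272 bases with Ppip5k1 on the opposite strand, an inositol phosphate kinase gene with 1797 ± 226 normalized counts in Anesthesia mice against 1607 ± 118 (SD, n = 4 each).

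Map1s (ENSMUSG00000019261, chromosome 8, 70905932 to 70917529) encodes the short, widely expressed MAP1 protein. It had 623, 975.6, 747.9 and 680.1 normalized counts in the 4 Anesthesia mice and 594.8, 542.9, 529.2 and 511.6 in the 4 Control mice. As with Map1a the groups did not overlap, but the highest value was in replicate 2 and not in replicate 4, and replicate 1 was close to the nearest Control mouse. The log2 fold change was 0.45 (standard error 0.13, 95% interval 0.18 to 0.73, adjusted p = 0.568 from limma), or 1.37-fold. Without Anesthesia replicate 2 it was 0.33.

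Map1b (ENSMUSG00000052727, chromosome 13, 99421446 to 99516540), the MAP1 gene of growing axons, had 31206, 32852, 30819 and 31590 normalized counts in the Anesthesia group. In the Control group the values were 31254, 32075, 29297 and 29144. The groups overlapped, and the log2 fold change of 0.055 had a 95% interval of -0.059 to 0.17 (adjusted p = 0.778 from limma). Map1a and Map1b have transcripts of nearly the same length, 11825 and 11808 bases, while their merged exons have 12166 and 15846 bases, so the size of their ratio depends on the length used and only the groups are compared. The ratio of their normalized counts within a mouse had a geometric mean of 0.487 in the Anesthesia group, with a range of 0.411 to 0.60, and of 0.322 in the Control group, with a range of 0.276 to 0.354.

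**Figure D1:**
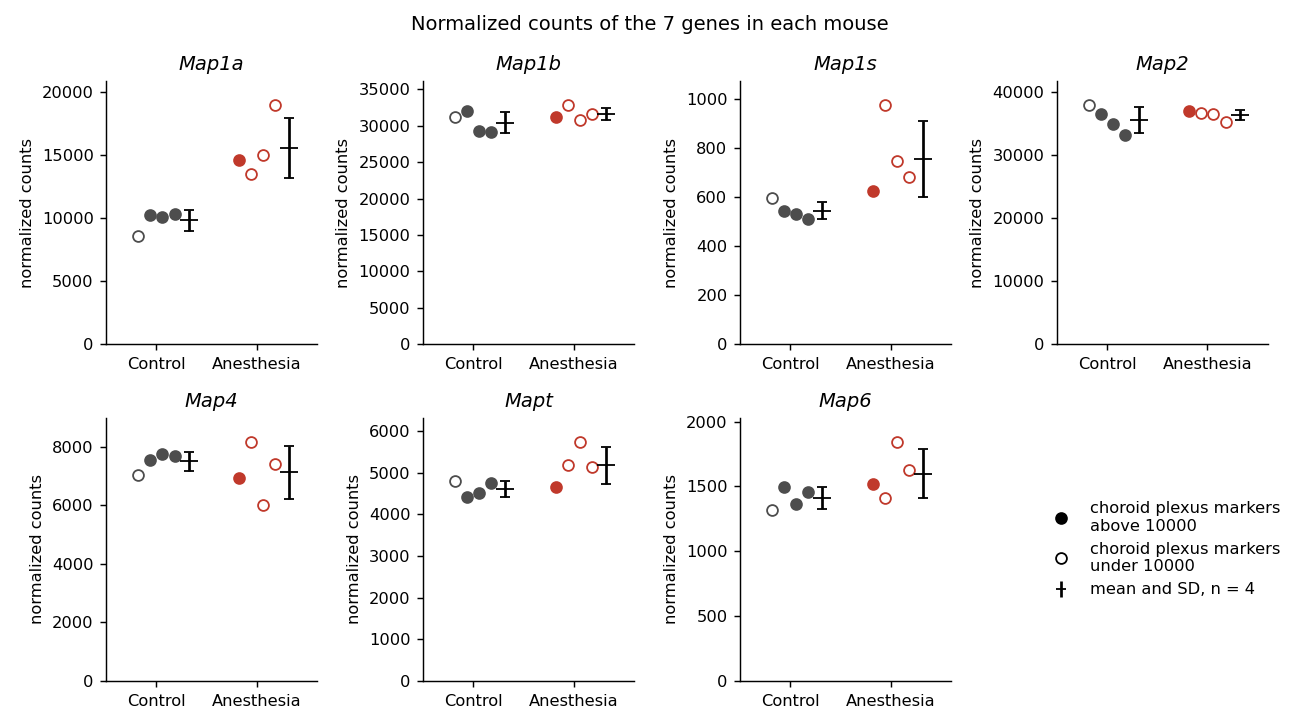
Normalized counts of each gene in each mouse, on axes that start at 0, with the mean and SD of the 4 mice of a group beside the points. Filled points are libraries whose choroid plexus markers sum to more than 10000 normalized counts. Only in Map1a and Map1s do all Anesthesia mice lie above all Control mice.

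The 3 genes with a shared repeat domain had groups that overlapped. Map2 (ENSMUSG00000015222, chromosome 1, 66175273 to 66442583) had 37089, 36698, 36561 and 35198 normalized counts in the Anesthesia mice and 37969, 36499, 34965 and 33166 in the Control mice. The highest and the lowest value were both in Control mice, and the log2 fold change was 0.031 (95% interval -0.089 to 0.15, adjusted p = 0.884 from limma). It shares 124 exon bases with the antisense gene Gm10558, whose group means were 67.9 and 62.3 normalized counts.

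Map4 (ENSMUSG00000032479, chromosome 9, 109931460 to 110083955) was the only one of the 7 with a lower mean in the Anesthesia group. It had 6934, 8182, 6020 and 7425 normalized counts there and 7027, 7546, 7754 and 7688 in the Control group. The Anesthesia mice spread to both sides of the Control mice, and the log2 fold change was -0.080 (95% interval -0.27 to 0.11, adjusted p = 0.804 from limma).

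Mapt (ENSMUSG00000018411, chromosome 11, 104231390 to 104332090), the tau gene, had 4663, 5184, 5750 and 5134 normalized counts in the Anesthesia group and 4798, 4409, 4511 and 4755 in the Control group. Anesthesia mice 2 to 4 lay above all Control mice, and replicate 1 lay within their range. The log2 fold change was 0.16 (standard error 0.067, 95% interval 0.015 to 0.31, adjusted p = 0.621 from limma).

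Map6 (ENSMUSG00000055407, chromosome 7, 99267447 to 99337137) had a similar size of difference. Its normalized counts were 1519, 1409, 1845 and 1623 in the Anesthesia mice and 1316, 1498, 1364 and 1456 in the Control mice, and 3 of the 4 Anesthesia mice lay above all Control mice. The log2 fold change was 0.18 (standard error 0.086, 95% interval -0.012 to 0.37, adjusted p = 0.636 from limma).

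**Figure D2:**
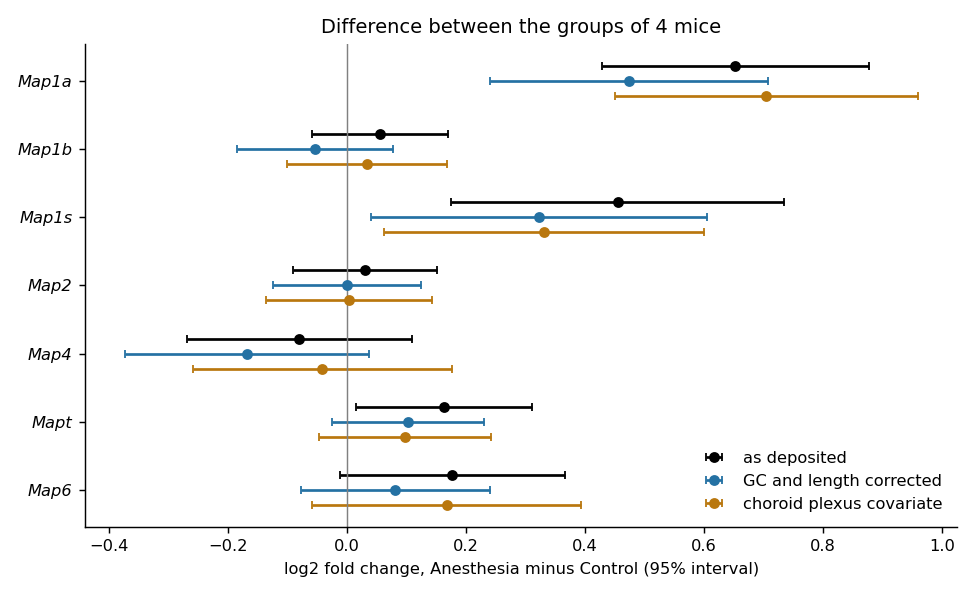
Log2 fold change of each gene (Anesthesia minus Control, 4 mice each) with its unadjusted 95% interval, from the deposited values, after a GC and length correction made library by library, and with choroid plexus markers as a covariate. The estimate runs from 0.47 to 0.71 for Map1a, shown without a test, and from 0.32 to 0.45 for Map1s, and Map1b changes sign with the GC and length correction. The intervals of Map1a take no account of its having been chosen for its difference.

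Set against each other gene within the same mouse, Map1a was higher in the Anesthesia group relative to Map1b, Map2, Map4, Map6 and Mapt, and in each of these ratios the groups did not overlap. The difference of the mean log2 ratio was 0.73 for Map4, 0.62 for Map2, 0.60 for Map1b, 0.49 for Mapt and 0.48 for Map6. For Map1s it was 0.20, and the groups overlapped, with log2 ratios of 3.79 to 4.80 in the Anesthesia group and 3.86 to 4.33 in the Control group. These ratios carry the values for which Map1a was chosen, so they were not tested.

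**Figure D3:**
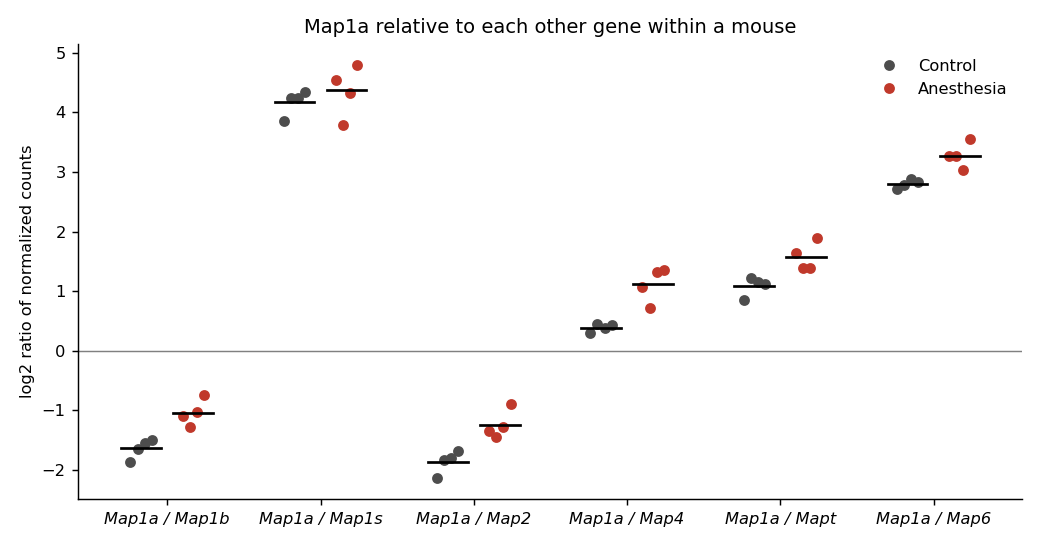
Log2 ratio of the normalized counts of Map1a to each other gene in each of the 8 mice, with the mean of each group as a line. The height of a pair also depends on transcript lengths, so only the groups within a pair are compared. The groups stand apart in every pair but Map1a and Map1s.

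Per kilobase of the longest coding transcript, the order of levels in the Control group was Map2 (5697 ± 329 normalized counts per kilobase, SD, n = 4), Map1b (2578 ± 123), Map4 (1232 ± 54.1), Mapt (879 ± 35.9), Map1a (830.0 ± 68.6), Map6 (286 ± 17.0) and Map1s (164 ± 10.8). Mapt and Map1a were neighbours in that order and overlapped between 839 and 873, while the other neighbours did not overlap. In the Anesthesia group Map1a, with 1312 ± 201, ranked 3 of 7. It then overlapped with Map4 (1172 ± 149) but not with Mapt (987 ± 84.8), while Map4 overlapped with Mapt and Map6 with Map1s, and the level of Map1a was above that of Map4 in 3 of 4 Anesthesia mice and 0 of 4 Control mice. Of the summed level of the 7 genes per kilobase, Map1a made up 10.5% ± 1.57 in Anesthesia mice against 7.13% ± 0.722 in Control mice (SD, n = 4 for both), and Map1s made up 1.82% ± 0.353 and 1.41% ± 0.0629.

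The order depends on the length used, since the 7 genes have 2 to 16 coding transcripts and the table gives no value per transcript. Per kilobase of all exons merged, Map1a ranked 3 of 7 in both groups, with 1275 ± 195 against 807 ± 66.6 (SD, n = 4 each), above Mapt and Map4 in all 8 mice. Map2, with 16 coding transcripts, then stood at 2190 over all mice in place of 5756.

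**Figure D4:**
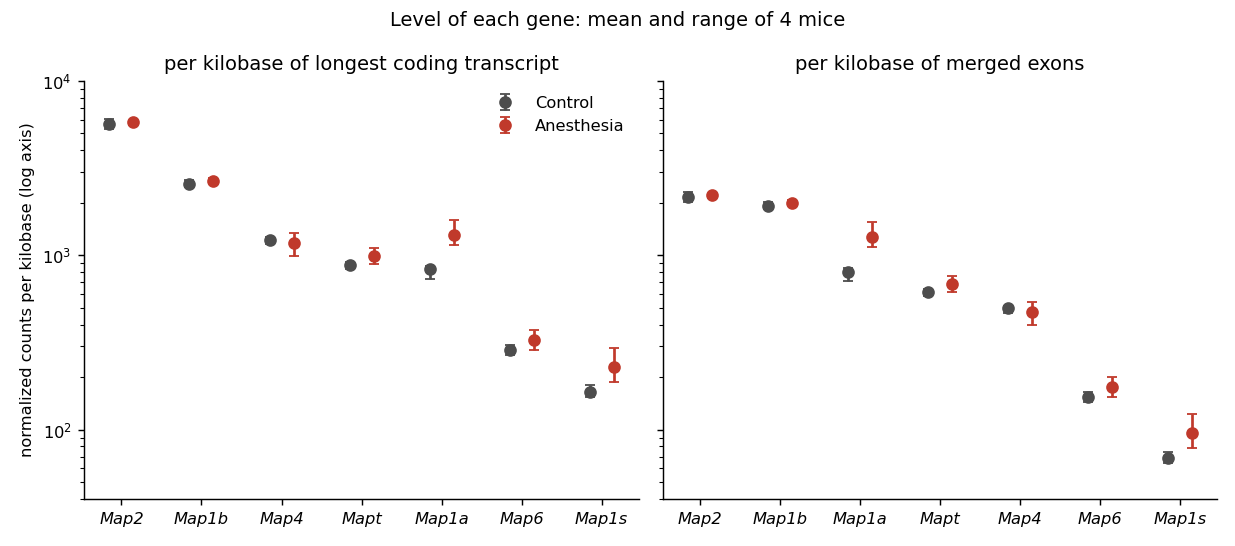
Normalized counts per kilobase on a log axis, as the mean and range of the 4 mice of each group, by the longest coding transcript and by merged exons. By the first measure Map1a ranks 5 of 7 in the Control group and 3 of 7 in the Anesthesia group, and by the second it ranks 3 of 7 in both.

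Within each group, the mouse with the highest Map1a was not the mouse with the highest Map1s. After the mean of its own group was taken from each value, the Pearson correlation between Map1a and Map1s over the 8 mice was -0.58. Against Map1a it was 0.48 for Map6, 0.10 for Map4, -0.11 for Mapt, -0.29 for Map1b and -0.65 for Map2. The closest pair of the 7 was Map1b and Map2, with 0.66. Of 12248 other genes with a mean of at least 100 normalized counts, those most like Map1a by this measure were Srd5a1 (0.99), H6pd (0.98), Dync1li2 (0.97), Kndc1 (0.96) and Inppl1 (0.96). With 8 mice in 2 groups and this many genes, correlations of that size are a description, and all points share their libraries. Among the 5, H6pd alone had groups that did not overlap, with a log2 fold change of 0.44, whereas that of Srd5a1 was -0.016.

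The genes also differed in length and base composition. The transcripts of Map1a and Map1b are longer than 98.9% and 98.8% of those of all genes tested, and their GC content is 54.8% and 47.6%, against a median of 48.9%. The Map1s transcript has 3314 bases and a GC content of 64.1%, higher than 99.3% of genes. GC content was 56.0% for Map6, above that of Map1a, 53.1% for Map4, 52.5% for Mapt and 47.8% for Map2. When GC content and length were corrected for in every library, the estimate was 0.47 for Map1a (standard error 0.11, without a test). For Map1s it was 0.32 (95% interval 0.041 to 0.61, adjusted p = 0.754 from limma). Under the same correction Map1b turned to -0.054, and Mapt and Map6 stood at 0.10 and 0.081 with intervals that included 0.

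The libraries differed in the tissue they held. All markers of CA1 pyramidal neurons and dentate granule neurons (5 of 5 each) were found and none was at 0, and 4 of 5 and 3 of 5 had a lower mean log2 value in the Anesthesia group. All 8 choroid plexus markers were found as well, and their summed level ran from 437 to 56520 normalized counts in the Anesthesia group and from 565 to 65870 in the Control group. It was above 10000 in Anesthesia replicate 1 and in Control replicates 2, 3 and 4. Within these 4 libraries, where Anesthesia replicate 1 is the only Anesthesia mouse, the log2 difference was 0.51 for Map1a, 0.24 for Map1s, 0.034 for Mapt and 0.079 for Map6. Within the 4 others, where Control replicate 1 is the only Control mouse, it was 0.86 for Map1a, 0.41 for Map1s, 0.16 for Mapt and 0.30 for Map6. With the choroid plexus level as a covariate, Map1a stood at 0.71, Map1s at 0.33 (95% interval 0.062 to 0.60) and Mapt at 0.098 (-0.047 to 0.24). Pan-neuronal markers, none of them at 0, had higher mean log2 values in the Anesthesia group in 5 of 5 (median log2 fold change 0.13). Of all 18865 genes tested, 9285 were higher. In 2 of the 5 pan-neuronal markers the groups did not overlap, where 2.81% of all genes were higher without overlap. The sums of the 5 ran from 53343 to 62692 against 49902 to 54428 and overlapped. By the count of markers, other lists went the other way, with lower values in 4 of 6 interneuron markers and in 4 of 6 astrocyte markers. The groups did not overlap in 2 of these astrocyte markers, where 2.23% of all genes were lower without overlap. The astrocyte markers Slc1a2 (0.17), which made up most of the astrocyte sum, and Aqp4 (0.051) were higher. The astrocyte sums ran from 97078 to 109156 in the Anesthesia group against 94046 to 99827 and overlapped. All 6 oligodendrocyte markers and all 5 blood markers were lower, with groups that overlapped. Of 5 microglia markers, 4 were higher, 1 of them without overlap. Of 6 RNAs known to be kept in the nucleus, 5 were higher (median log2 fold change 0.22), and their sums ran from 342839 to 395971 against 316692 to 342471, nearly touching. Malat1 made up most of each sum and its own groups overlapped, and Miat was the only 1 of the 6 whose groups did not. The part of cell content and nuclear RNA in the differences of Map1a and Map1s was not tested.

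Other genes of the microtubule system were examined in 6 lists. Of their 80 genes, none was past the threshold, and 10 had an unadjusted p under 0.05 in limma, where the share over all genes was 8.02%. Of the 80, 56 had a higher mean log2 value in the Anesthesia group, against 9285 of all 18865 genes tested. The median of the 80 was 0.045 on the log2 scale, against -0.0036 for all genes tested. That of the 7 MAP genes, 0.16, counts Map1a, on whose values the set was chosen, so it is not compared. None of the 80 had a log2 fold change above that of Map1a or Map1s. The groups did not overlap in 2 of the 80, close to the 2.81% of all genes that were higher without overlap. These were Kif1b, a kinesin motor (0.15, standard error 0.050, adjusted p = 0.620 from limma), and Dctn1, a subunit of dynactin (0.16, standard error 0.070, adjusted p = 0.622), both higher in the Anesthesia group.

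The 12 tubulin subunits had a median log2 fold change of -0.0042, with 6 higher and 6 lower. Tuba1c, chosen after its values were seen, stood at -0.98 with a standard error of 0.64 and group means of 56.1 and 103 normalized counts, and the other 11 lay between -0.087 and 0.070. The 16 other microtubule-binding proteins, among them doublecortin and the stathmins, had a median of 0.039, and the 13 kinase and phosphatase genes that act on MAPs had one of 0.054. For the 16 tubulin-modifying and severing enzymes it was 0.050, and for the 17 motor genes 0.051. Among 6 partners and regulators of MAP1 proteins the median was 0.055, and the groups overlapped in all 6.

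**Figure D5:**
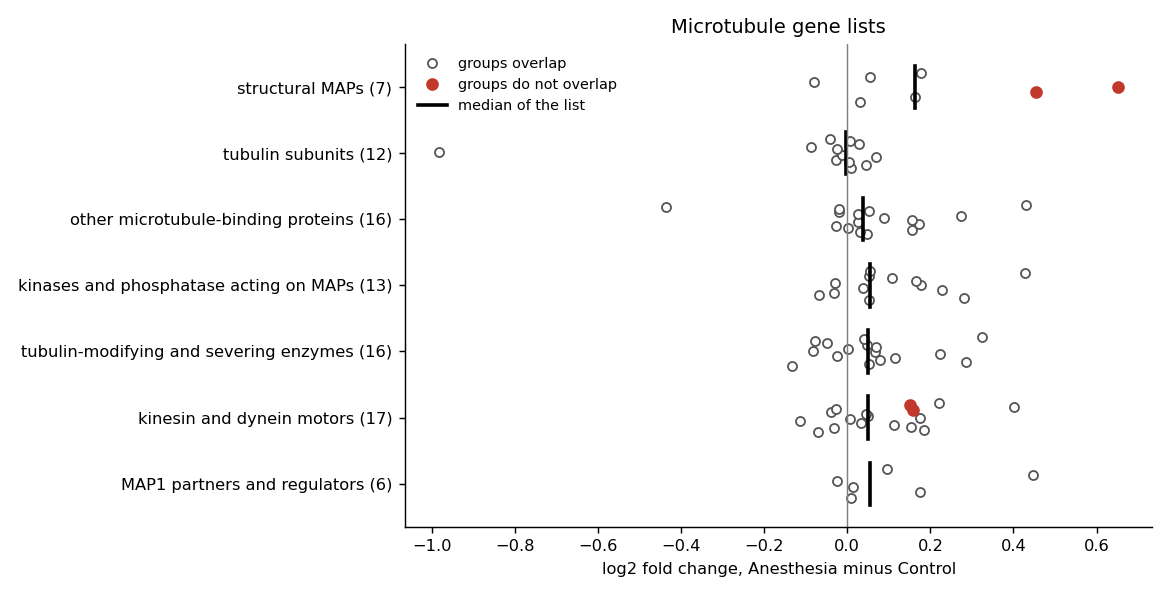
Log2 fold change (Anesthesia minus Control) of every gene in the 7 MAP genes and in 6 lists of other microtubule genes, with the number of genes in parentheses and the median as a bar. Map1a and Map1s lie furthest to the right, and the other genes whose groups do not overlap are Kif1b and Dctn1. The median of the 7 MAP genes counts Map1a, on whose values they were chosen.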

How the data were processed

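RNA-sequencing values of 8 hippocampal samples were analysed. The authors ran Salmon 1.1.0 with its GC bias option against GRCm38, passed the estimates to genes through tximport and scaled them by DESeq2 1.30.1 size factors, so the deposited values are a normalized signal per mouse and not whole reads. The annotation release and the filter on low genes are not given in the sources used here. The paper names a stranded library kit and the labels another kit, so strand was not assumed.

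Values were compared with limma 3.58.1 in R 4.3.3 (trend option, no covariate) after a log2(value + 1) transform, a scale on which fold changes of low genes are understated. The 18865 genes whose mean reached 10 were fitted, and Benjamini-Hochberg adjusted p-values cover all of them. Intervals are per gene and not adjusted. Symbols came from GENCODE M21, which held 20784 of the 20802 identifiers, and the 7 genes all had a GC content and a length. The fit was tested on artificial data with known differences.

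The members and lists were chosen with earlier results of these data known. Named genes are the 7 members, genes of 6 microtubule lists whose groups did not overlap (at most 4 a list) and the 5 genes most like Map1a. Genes that share exon bases with a member, single markers that bear on a marker sum and Tuba1c are named besides. Pairs of mice with the same number did not deviate together (correlations -0.242, -0.109, -0.182 and 0.019), so no pairing was used. The split by choroid plexus markers was added after the data were seen.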

Additional observations from a re-analysis of the deposited data

Results flagged for a closer look

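In each of 14 groups of 4 mice, 2 for every gene, the highest and lowest values were compared with the nearest other value. The Map1a values of the Control group held a mouse that stood apart: replicate 1, with 8611 normalized counts, lay below the others, which had 10061 to 10322 (gap over range 0.848, above Dixon's 95% critical value for 4 samples). Chance flags about 1 in 20 such groups, and 1 of 14 was flagged here. Without this mouse the log2 fold change of Map1a was 0.59.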

How the results depend on the processing

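The number of genes past the threshold was 0 under 17 of 18 alternatives and ranged from 0 to 2 when single mice were left out, with 2 without Control replicate 1. With each mouse left out, the log2 fold change ranged from 0.55 to 0.72 for Map1a, 0.33 to 0.54 for Map1s, 0.035 to 0.081 for Map1b, -0.0031 to 0.062 for Map2 (-0.0031 without Control replicate 4), -0.15 to -0.0004 for Map4 (-0.0004 without Anesthesia replicate 3), 0.11 to 0.24 for Map6 and 0.11 to 0.21 for Mapt. The lowest adjusted p of Map1s over its 18 alternatives was 0.267 and the highest 0.984. With the correction for GC content and transcript length, with or without the replicate block, Map1a fell to 0.47 and Map1b turned to -0.054. With the replicate number alone as a block, 0 genes passed and Map1a stayed at 0.65. In the 4 libraries poor in choroid plexus markers, with a single Control mouse, Map1a stood at 0.86, Map2 at -0.071 and Map4 at 0.025. In the 4 rich ones, with a single Anesthesia mouse, Map1s stood at 0.24 and Mapt at 0.034. The cause of these shifts was not tested. Per kilobase of merged exons, the level over all mice was 2190 for Map2, 1958 for Map1b, 650.7 for Mapt, 484 for Map4, 164 for Map6 and 81.7 for Map1s. Another pseudocount, filter, scaling or voom weights turned no direction among the 7 genes. With Spearman's rho in place of Pearson's r, the likeness of Srd5a1 to Map1a was 0.88.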
